A study of Schizosaccharomyces pombe with 4 samples.

Results

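The ade genes of the fission yeast Schizosaccharomyces pombe encode the enzymes that build purine nucleotides from small precursors. They were taken here as all genes on the array whose symbol is ade followed by a number, which gave 10 genes of 4880 named on the array. Each of the 10 had 1 spot, and each spot had a value on all 4 arrays, so no member was lost to a filter. The mmi1-ts3 cells (strain JV565, temperature-sensitive allele of mmi1) and the wild-type cells (strain JV558) were each hybridised on 2 arrays. On every array, polyA RNA of cells kept for 30 min at 36 °C was set against polyA RNA of that strain's own culture at 25 °C, both in the rich liquid medium YES. Mmi1 is an RNA-binding protein that removes meiotic transcripts from growing cells, and 36 °C is the restrictive temperature of the mutant allele. The cultures started from a single colony. Whether either strain carries a mutation in ade6, a common marker in laboratory strains, is not stated in the labels.

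Purine synthesis starts from phosphoribosyl pyrophosphate (PRPP) and assembles the ring step by step until inosine monophosphate (IMP) is reached. IMP is then converted to AMP or to GMP. Cells can also recover ready-made purine bases by salvage, and YES medium is supplemented with adenine. In fission yeast, mutants of ade6 and ade7 are known for their red colonies, because an intermediate of the pathway turns into a pigment.

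The values are log2 ratios of 36 °C over 25 °C, centred on the median of each array; the base of the logarithm was read from the range of the values. They report a change in each strain and hold no level, so a transcript cannot be compared between the strains at 25 °C, and less RNA in every cell cannot be told apart from fewer cells holding the RNA. The direction of the ratio is likely rather than stated: of 10 measured heat shock genes, 9 lay above 0 on all 4 arrays, against 29.9% of all genes. As a check of the mutant, 6 of 9 measured Mmi1 targets had the mmi1-ts3 arrays above the wild-type arrays without overlap, and so did 3 of 8 genes of mating and meiotic cells, against 9.31% of all genes. The gene mei4 is in both lists, and the lists were chosen with earlier results of these data known, so this is no independent check. The labels mention no dye swap. A dye effect of a spot would therefore remain in every response below and would cancel between the strains. Arrays of both strains fall into a set without and a set with a code in the title, called uncoded and coded here. In each strain the uncoded array is replicate 1 and the coded array replicate 2.

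Most of the pathway fell after the shift. Averaged over both strains, 8 of 10 ade genes were lower at 36 °C, against 24.8% of all genes tested, and 1 was higher, against 23.1% (limma across 4771 genes, adjusted p under 0.05). The fall was at least 2-fold for 6 of the 10, against 9.85% of all genes. The genes that fell were ade1, ade9, ade5, ade8, ade4, ade10, ade3 and ade2, the gene that rose was ade7, and ade6 did not pass. The median of the 10 was −1.19 on the log2 scale, against 0.02 for all genes. On single arrays, 8 of 10 lay below 0 on all 4 arrays, against 31.6% of all genes, and 5 of 10 were at least 2-fold lower on all 4 arrays, against 6.1%. Above 0 on all 4 arrays was 1 of 10, against 29.9%.

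**Figure D1:**
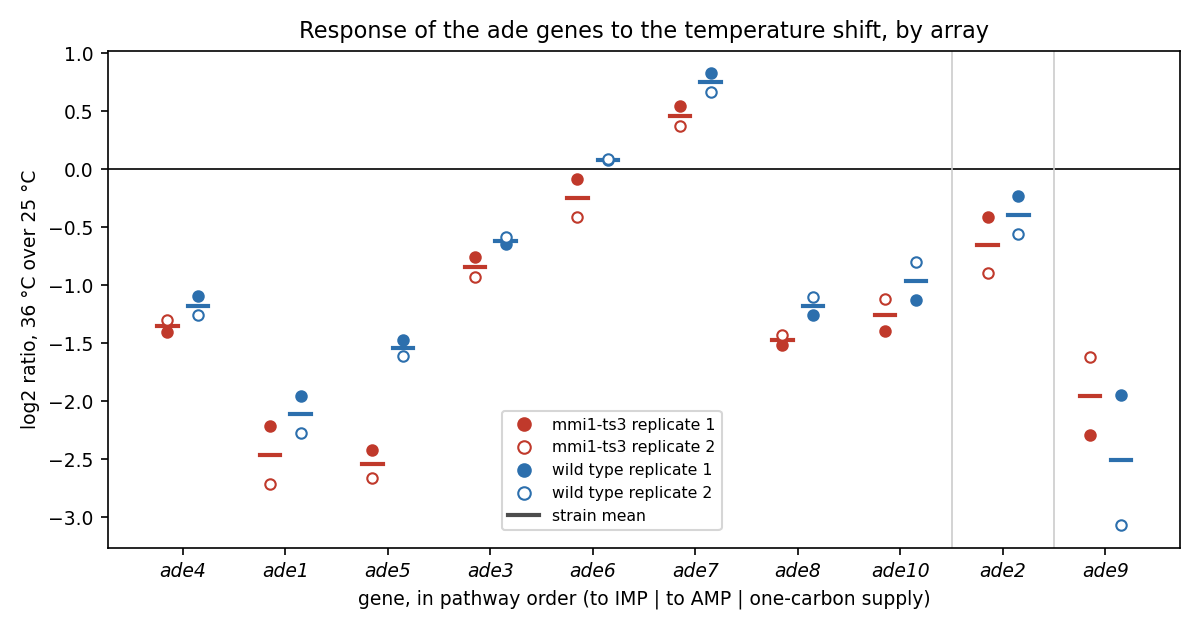
Log2 ratio of 36 °C over 25 °C (vertical axis) for each ade gene in the order of the pathway, with 1 point per array, mmi1-ts3 left of the wild type, and a bar at each strain's mean. The genes from ade4 to ade3 and from ade8 to ade9 lie below 0 on all 4 arrays. Above 0 on all 4 lies ade7, and ade6 spans from −0.41 to 0.09.

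Within each strain the same enzymes led. In mmi1-ts3, 7 of 10 were lower, against 19.6% of all genes, and 0 were higher, against 14.9% (limma), although 1, ade7, had an unadjusted p of 0.0366. In the wild type, 7 of 10 were lower, against 14.5%, and 1 was higher, against 13.5%. The 7 lower genes were the same in both strains, ade2 and ade6 passed in neither, and ade7 passed in the wild type alone; that difference between the strains was itself tested below and did not pass.

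The pathway opens with ade4, the amidophosphoribosyltransferase that commits PRPP to purines. The ratios of ade4 were −1.41 and −1.30 on the mmi1-ts3 arrays and −1.09 and −1.26 on the wild-type arrays. All 4 arrays thus lay within a narrow band, with the mmi1-ts3 arrays below both wild-type arrays. The fall was 2.41-fold over both strains (log2 −1.27 ± 0.12 SE, adjusted p = 0.00078).

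The next enzymes, ade1 and ade5, fell most of those on the route to IMP. The product of ade1 is bifunctional: it makes glycinamide ribonucleotide and, further on, closes the first ring. The ratios of ade1 were −2.22 and −2.71 on the mmi1-ts3 arrays and −1.95 and −2.27 on the wild-type arrays. The strains overlapped, and the coded array was the lower of the pair in both. Over both strains ade1 was 4.89-fold lower (−2.29 ± 0.14 SE, adjusted p = 0.000268), place 46 from the bottom of all 4771 genes.

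The formyltransferase of glycinamide ribonucleotide is encoded by ade5. Its ratios were −2.42 and −2.66 on the mmi1-ts3 arrays and −1.47 and −1.61 on the wild-type arrays. The arrays of each strain lay close together, and both mmi1-ts3 arrays were below both wild-type arrays. The strain difference did not pass limma's test (adjusted p = 0.998). Over both strains the mean was −2.04 ± 0.12 SE (adjusted p = 0.000232). The fall was 5.82-fold in mmi1-ts3 (−2.54 ± 0.17 SD, n = 2, adjusted p = 0.00087) and 2.91-fold in the wild type (−1.54 ± 0.10 SD, n = 2, adjusted p = 0.0033).

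In the middle of the pathway the fall was smaller or absent. The phosphoribosylformylglycinamidine synthase ade3 fell, with ratios of −0.76 and −0.93 on the mmi1-ts3 arrays and −0.65 and −0.59 on the wild-type arrays. Both mmi1-ts3 arrays were below both wild-type arrays, and the fall over both strains was 1.66-fold (−0.73 ± 0.12 SE, adjusted p = 0.00477). Within a strain this call was fragile. In mmi1-ts3 (adjusted p = 0.0138) it was lost without replicate 1 (0.0775) or replicate 2 (0.146). In the wild type (adjusted p = 0.0431) it was lost in each of the 4 fits that leave out 1 array. The wild-type value was −0.59 without wild-type replicate 1 and −0.65 without wild-type replicate 2. Without either mmi1-ts3 array it stayed at −0.62, so there the estimate of the spread changed and the value did not.

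The carboxylase of the pathway, ade6, acts once the first ring is closed. Its ratios were −0.09 and −0.41 on the mmi1-ts3 arrays and 0.08 and 0.09 on the wild-type arrays. The strains lay on opposite sides of 0, and the value farthest from 0 was that of mmi1-ts3 replicate 2. The mean over both strains was −0.08 ± 0.12 SE (adjusted p = 0.602).

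The enzyme after it, the SAICAR synthetase ade7, was the exception to the fall. Its ratios were 0.55 and 0.38 on the mmi1-ts3 arrays and 0.83 and 0.67 on the wild-type arrays. All 4 arrays were above 0, and the mmi1-ts3 arrays were the lower ones. The rise over both strains was 1.52-fold (0.60 ± 0.12 SE, adjusted p = 0.00969), and without mmi1-ts3 replicate 1 the adjusted p was 0.0526. In the wild type alone it rose 1.68-fold (0.75 ± 0.11 SD, n = 2, adjusted p = 0.0262), with an adjusted p of 0.122 without wild-type replicate 1 and 0.0905 without replicate 2. In mmi1-ts3 alone it was 0.46 ± 0.12 SD (n = 2, adjusted p = 0.0861, and 0.0498 in the fit blocked by array set).

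The steps that finish IMP fell to a like extent. The adenylosuccinate lyase ade8 works on the route to IMP and again on that to AMP, and its ratios were −1.51 and −1.43 on the mmi1-ts3 arrays and −1.26 and −1.10 on the wild-type arrays. The mmi1-ts3 arrays were both below the wild-type arrays, and the fall over both strains was 2.51-fold (−1.33 ± 0.12 SE, adjusted p = 0.000665). The bifunctional ade10 carries out the closing transformylase and cyclohydrolase reactions. Its ratios were −1.40 and −1.12 on the mmi1-ts3 arrays and −1.13 and −0.80 on the wild-type arrays. The strains overlapped slightly at the middle values, and the fall over both was 2.16-fold (−1.11 ± 0.13 SE, adjusted p = 0.00165). The wild-type call of ade10 (adjusted p = 0.0165) was lost without wild-type replicate 1 (0.088).

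From IMP, the adenylosuccinate synthetase ade2 opens the branch to AMP. Its ratios were −0.42 and −0.89 on the mmi1-ts3 arrays and −0.23 and −0.56 on the wild-type arrays. The strains overlapped, and the coded array was the lower in both. The fall of 1.44-fold over both strains (−0.52 ± 0.14 SE, adjusted p = 0.029) was the smallest that passed, and it did not pass without mmi1-ts3 replicate 2 (adjusted p = 0.157) or without wild-type replicate 2 (0.0994). Alone, mmi1-ts3 had an adjusted p of 0.055 and the wild type one of 0.204, and mmi1-ts3 passed in the fit blocked by array set (0.0201).

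The last member, ade9, lies beside the pathway. It encodes the C1-tetrahydrofolate synthase, which supplies the formyl groups that the transformylases of purine synthesis use. Its ratios were −2.29 and −1.62 on the mmi1-ts3 arrays and −1.95 and −3.07 on the wild-type arrays. This was the widest spread between replicates of the 10, with SD values of 0.47 in mmi1-ts3 and 0.79 in the wild type (n = 2 each), and the lowest value came from wild-type replicate 2. The fall over both strains was 4.70-fold (−2.23 ± 0.23 SE, adjusted p = 0.00101). With 1 array left out it ran from −2.51 to −1.95.

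In the RefSeq annotation, ade9 overlaps its neighbour crs1, a meiotic cyclin gene and an Mmi1 target. The spot of crs1 read 2.99 and 2.32 on the mmi1-ts3 arrays and −0.17 and −0.05 on the wild-type arrays. The strain difference of crs1 was 3.16 between the uncoded and 2.36 between the coded arrays, while that of ade9 was −0.35 and 1.45 in the same sets. The labels do not say which stretch of ade9 is on the array, and whether its spot reads RNA of crs1 was not tested. Likewise ade8 overlaps SPOM_SPBC14F5.10C and med7, and ade1 overlaps SPOM_SPBC405.02C. The mean responses of these neighbours were 1.23, 0.07 and −0.50, against −1.33 for ade8 and −2.29 for ade1. Another 6 members overlap annotated non-coding RNAs only.

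The order of the ade genes by the mean over both strains is a description, since the same 4 arrays gave the order and the differences below. The lowest were ade1, ade9 and ade5, whose order changed from array to array. Next came ade8, above ade5 on 4 of 4 arrays by a mean of 0.71 ± 0.45 (SD, n = 4 arrays). This gap was 0.90 and 1.23 on the mmi1-ts3 arrays and 0.21 and 0.51 on the wild-type arrays. The SD values in this paragraph pool both strains. The genes ade8, ade4 and ade10 followed each other, neighbours that differed by 0.06 ± 0.15 and 0.15 ± 0.22 and did not keep their order on every array. From there each gene was above the one before on 4 of 4 arrays: ade3 over ade10 by 0.38 ± 0.22, ade2 over ade3 by 0.21 ± 0.20, ade6 over ade2 by 0.44 ± 0.16 and ade7 over ade6 by 0.69 ± 0.10. The step from ade2 to ade3 was only 0.04 on the coded mmi1-ts3 array and 0.03 on the coded wild-type array. The closest pair of profiles was ade4 and ade8, with a root mean square difference of 0.14 over the 4 arrays.

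**Figure D2:**
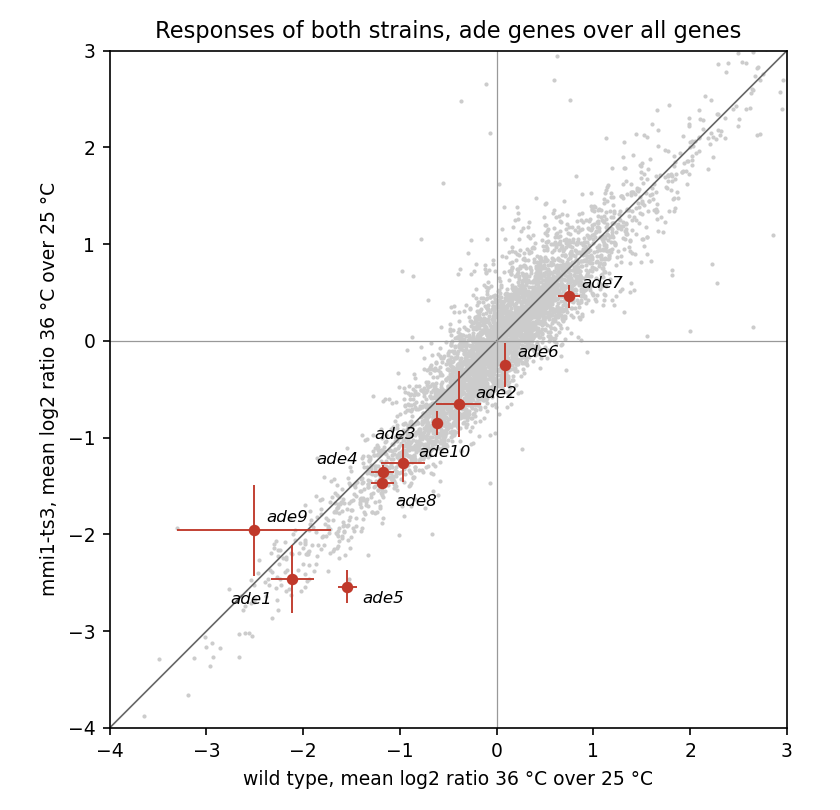
Mean log2 ratio of 36 °C over 25 °C in mmi1-ts3 (vertical axis) against the wild type (horizontal axis), with the ade genes in red (bars, SD of 2 arrays) over all genes tested in grey; the line marks equal responses, and 52 genes above 3 in either strain lie outside the axes. All ade genes but ade9 lie below the line, ade5 the farthest, and ade9 has the widest bars.

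The series sets expression without Mmi1 function against expression with it, and for the ade genes that is the difference between the responses of the strains. The difference, mmi1-ts3 minus wild type, was below 0 for 9 of 10, against 60.8% of all genes, with a median of −0.29 against −0.07 for all genes. Both mmi1-ts3 arrays were below both wild-type arrays for 6 of 10 (ade5, ade8, ade4, ade3, ade6 and ade7), against 20.4%, and above them for 0, against 9.31%. By limma 0 of 10 passed, as did 0% of all genes, and the adjusted p of each of the 10 was 0.998. At an unadjusted p under 0.05 stood 1 of the 10, ade5, against 0.859% of all genes on the lower side, and 0 of the 10 on the higher side, against 1.03%. Of 10 measured purine salvage and interconversion genes, 9 had a difference below 0 (median −0.30), and 4 had mmi1-ts3 arrays lower without overlap. Among 10 one-carbon and folate genes these counts were 7 (median −0.18) and 5, and among 6 pyrimidine genes 4 (median −0.13) and 1.

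The difference of ade5 was −1.0 ± 0.24 SE, which is a response 2.0-fold lower in mmi1-ts3 (unadjusted p = 0.00732, adjusted p = 0.998). It was −0.94 between the uncoded and −1.05 between the coded arrays and ran from −1.12 to −0.88 with 1 array left out. By size it took place 17 from the bottom of 4771 genes. The other negative differences were smaller, from −0.35 ± 0.29 SE for ade1 to −0.18 ± 0.23 SE for ade4, and kept their sign with any 1 array left out. Those of ade7 (−0.29 ± 0.24 SE) were −0.28 and −0.29 in the uncoded and coded sets, and those of ade6 (−0.33 ± 0.25 SE) −0.17 and −0.50. For ade9 the difference was 0.55 ± 0.45 SE, and without wild-type replicate 2 it was −0.01.

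**Figure D3:**
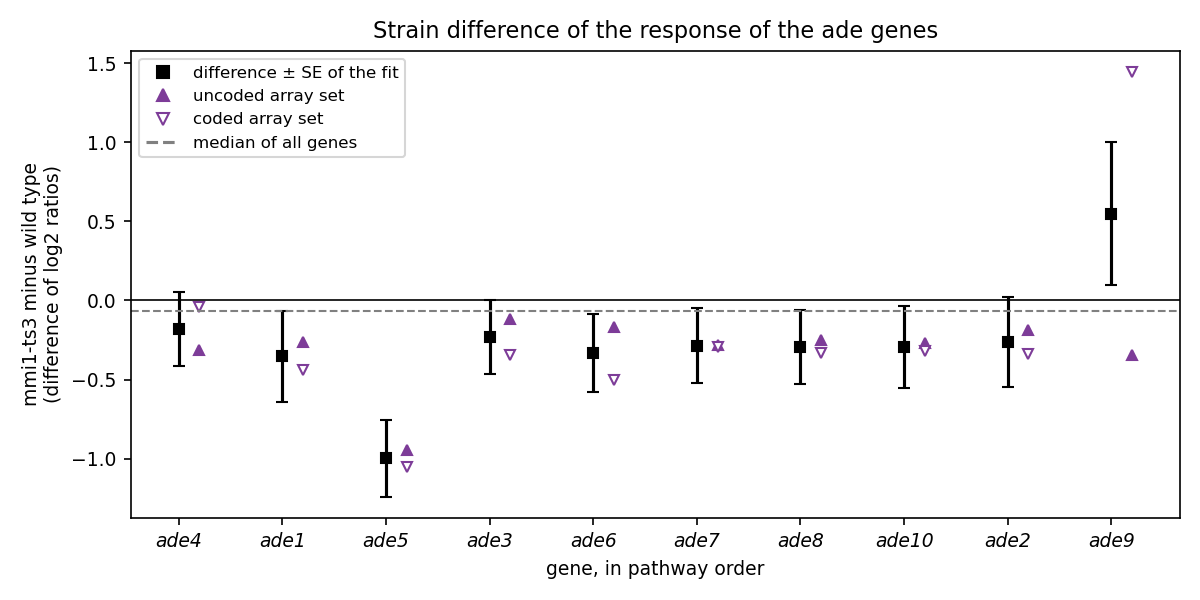
Difference of the log2 ratios, mmi1-ts3 minus wild type (vertical axis), for each ade gene: squares with bars give the fitted difference and its SE, triangles the values within the uncoded and coded array sets, and the dashed line the median of all genes. The squares of 9 genes lie below 0, ade5 lowest at −1.0, and the triangles of ade9 lie on both sides of 0.

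Genes around the ade pathway were counted in the same way, against 24.8% of all genes that fell and 23.1% that rose. Of 10 measured genes of purine salvage and interconversion, 6 fell over both strains and 4 did not pass, with a median of −0.79. The adenine phosphoribosyltransferase apt1, which salvages adenine, had a lower mean than any ade gene, with ratios of −2.71 and −3.82 on the mmi1-ts3 arrays and −2.46 and −3.40 on the wild-type arrays. It was 8.56-fold lower over both strains (−3.10 ± 0.25 SE, adjusted p = 0.000473) and took place 6 from the bottom of all genes. The adenine deaminase dea2 (−1.78) and the phosphoribosyltransferase hpt1 (−1.21) also fell. So did both enzymes of the branch to GMP, the IMP dehydrogenase gua1 (−1.40) and the GMP synthase gua2 (−1.22). The guanylate kinase guk1 (−0.37, adjusted p = 0.0449) was the weakest of the 6 and passed in none of the 4 fits that leave out 1 array (adjusted p from 0.0739 to 0.215) and not with arrays scaled to a common spread (0.0504).

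The lists of one-carbon and folate genes and of PRPP and pentose phosphate genes held both falls and rises. The median of 10 measured one-carbon and folate genes was −0.88, and 7 of them fell while 1 rose. The lowest were the methylenetetrahydrofolate reductase met9 (−2.02), the S-adenosylmethionine synthetase sam1 (−1.75) and the dihydrofolate reductase dfr1 (−1.43). The median of 6 measured genes of PRPP and the pentose phosphate pathway was −0.07, with 3 falls and 2 rises. The PRPP synthetase prs1 was 3.55-fold lower (−1.83 ± 0.12 SE), while the transaldolase tal1 was 2.53-fold higher (1.34 ± 0.12) and the glucose-6-phosphate dehydrogenase zwf1 2.14-fold higher (1.10 ± 0.12).

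Of 6 measured pyrimidine genes 6 fell, with a median of −0.90, and ura3 (−2.24), ura5 (−1.28) and ura2 (−0.98) were lowest. Among 7 histidine genes (median −0.46) there were 4 falls and 2 rises, with his2 at −1.05, his4 at 0.89 and his5 at −0.63; the call of his5 (adjusted p = 0.0256) was lost without mmi1-ts3 replicate 2 (0.118) or wild-type replicate 2 (0.0855). Among 59 genes of other amino acid synthesis (median −0.21) there were 19 falls and 12 rises, nearer to the shares of all genes (24.8% and 23.1%). Of these, met9 and met11 also stand among the one-carbon genes. The largest of these changes were those of met9, the chorismate synthase aro2 (−1.62) and pro3 (−1.26). This list was made by name pattern and takes in trp663, trp1322 and arg82, which are known for other functions. The shares of genes that fell were not tested against each other.

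**Figure D4:**
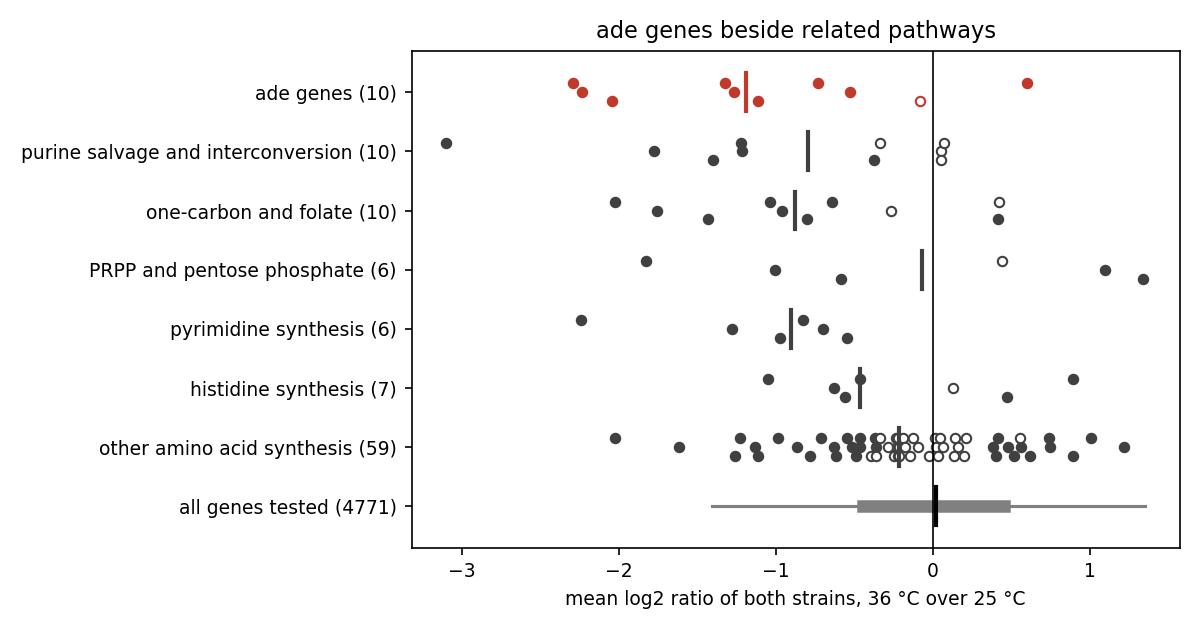
Mean log2 ratio of both strains, 36 °C over 25 °C (horizontal axis), for the ade genes and the related pathways, with 1 point per gene (filled where limma's adjusted p was under 0.05), a bar at each list's median and the number of genes in brackets; for all genes the thick line spans the quartiles and the thin line the range from percentile 5 to 95. The ade genes have the lowest median of these lists, at −1.19, and span from −2.29 to 0.60.

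Genes outside the pathway had nearly the same values. Those nearest to the median profile of the 10 ade genes over the 4 arrays were SPOM_SPBC543.02C, tif1, tif313, rpa34 and rpp0, with root mean square differences from 0.047 to 0.089 on the log2 scale. Nearest to ade1, the member with the largest mean response, was cts1 (0.074), then SPOM_SPAC1B9.03C, sla1, utp3 and SPOM_SPAC5H10.03 (up to 0.161). These distances describe 4 arrays only and say nothing of shared function. The genes next to the ade genes on the chromosomes were divided: of 19 measured neighbours 5 fell and 6 rose when averaged over both strains, with a median of −0.08, where 24.8% and 23.1% of all genes fell and rose. These neighbours include crs1, SPOM_SPBC14F5.10C, med7 and SPOM_SPBC405.02C, which overlap a member. The rise of crs1 came from mmi1-ts3 (2.65), while its wild-type mean was −0.11.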

How the data were processed

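Two-channel arrays of polyA RNA were analysed from the deposited table of log2 ratios, 1 column per array. The log base, direction, background correction and normalization by the authors are not given in the sources used here. The values were read as log2 because the deposited maximum of 7.81 exceeds 4.82, the range of a 16-bit scanner on a base-10 scale; a natural logarithm remains possible. Positive was read as higher at 36 °C from the heat shock genes. Per the labels, channel 1 was Cy5, while the label protocol names Cy3.

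Spots were named through the array annotation and RefSeq assembly ASM294v3 (4930 of 4933 spots with 1 gene matched by gene ID). Spots of a gene were averaged, and 4771 of 4880 named genes had a value on all 4 arrays and were tested; 5121 to 5184 of 5188 spots had a value per array. Each array was centred on its median (−0.10 to 0.10). The strain means were fitted jointly with limma 3.58.1 (R 4.3.3, eBayes, 2 residual and 3.56 prior degrees of freedom), two-sided, with Benjamini-Hochberg adjustment over all genes at 0.05. The fit was tested on simulated data. The number of arrays limits the precision: an exact permutation test of 2 against 2 cannot go below p = 0.333, and nothing says that replicates were separate cultures, so p-values may cover technical spread alone.

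The members and lists were chosen with earlier results of these data known. Named genes were all members, up to 3 genes per list with the largest mean response (and every salvage gene that passed), the 5 nearest profiles to the members' median and to the member with the largest mean response. Genes overlapping a member were named after their values were seen. Replicates were numbered in record order, which in each strain also separates the uncoded from the coded array. The labels state no pairing, and this array set was tried as a block. Sequences are not shown because no sequence table was used here.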

Additional observations from a re-analysis of the deposited data

Results flagged for a closer look

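The carboxylase gene ade6 was below 0 on both mmi1-ts3 arrays (−0.09 and −0.41) and above 0 on both wild-type arrays (0.08 and 0.09), so that every array of one strain moved against every array of the other. The difference was −0.33 ± 0.25 SE, and it did not pass limma's test (unadjusted p = 0.231, adjusted p = 0.998). The opposite signs depend on the centring, since the deposited value of wild-type replicate 1 before centring was −0.02.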

How the results depend on the processing

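The counts of genes called, the values and median of the ade genes, and the mean responses of the named pathway genes were recomputed under 14 other settings, while list medians and counts, non-overlap counts, the order of the ade genes, profile distances and neighbour counts were not; centring within the table (each spot on the median of the spots around it in the table) was chosen after seeing the data. Over both strains 7 or 8 ade genes fell in all 14; within strains it was 6 to 8 in mmi1-ts3 and 5 to 7 in the wild type. With 1 array left out, where a lone array is assumed to vary like the others, the ade genes called higher numbered 0 to 1 over both strains and 0 to 1 in the wild type. In mmi1-ts3, 1 ade gene (ade7) was called higher with the array set as a block (replicate block), with centring within the table and at an adjusted p under 0.1, against 0 as reported. The block changed 2 calls of ade genes, those of ade2 and ade7 in mmi1-ts3.

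Read as natural logarithms, the medians of the ade genes would be −1.89 in mmi1-ts3, −1.54 in the wild type and −1.72 over both, with the same calls. Centring within the table gave a median of −1.10 in mmi1-ts3 and turned the mean of ade6 to 0.041; the cause was not tested. The difference of ade9 ran from −0.0125 to 1.11 with 1 array left out.

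Over all genes, with 1 array left out, 514 to 974 genes were lower and 367 to 819 higher in mmi1-ts3, and 296 to 666 lower and 353 to 680 higher in the wild type; the lowest counts leave 1 array in that strain. The strain difference called 0 to 2 genes higher with 1 array left out and 3 with centring within the table, none of them an ade gene. With 2 arrays a strain, the mean response of ade6 (−0.08 ± 0.12 SE) did not pass, and the smallest detectable response was not worked out.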
